A study of Arabidopsis thaliana with 12 samples.

Results

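The genes described here were all rows of the deposited table whose Arabidopsis identifier starts with ATCG, for the chloroplast genome, or ATMG, for the mitochondrial genome. They were 120 of 20814 rows, 84 from the chloroplast and 36 from the mitochondrial genome. The libraries came from poly(A) RNA of roots of wild-type Arabidopsis thaliana seedlings, grown for 4 d and then treated for 3 d. BiAux libraries received 5 µM BiAux, a synthetic compound built from auxin units, IAA libraries received 10 nM indole-3-acetic acid, the main natural auxin, BiAux+IAA libraries received both, and mock libraries received neither. There were 3 libraries per group and 12 in all. Groups were taken from the library titles. The separate treatment field names another treatment in 7 of the 12 libraries (mock 3, BiAux 1 to 3 and IAA 1 to 3), so a group below means the libraries with that title, and which treatment these 7 received is uncertain. Nothing in the labels says that libraries of a group came from separate cultures, so the p-values measure only the spread between these libraries.

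Plastids and mitochondria keep small genomes of their own. In roots, plastids do not photosynthesise as leaf chloroplasts do, but they still make starch, fatty acids and amino acids and still transcribe genes for their ribosomes, RNA polymerase and thylakoid complexes, while mitochondria make subunits of the respiratory chain and its ATP synthase. Poly(A) tails in these organelles are short and mark RNA for decay, and most nuclear messengers keep long stable tails. A library made from RNA selected with oligo(dT) therefore samples organelle RNA in part and unevenly, and the values below describe what such libraries held, not the amount of each organelle RNA in the root.

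Values are the authors' normalized counts, and totals lay between 32413978 and 32720463 per library. The original read depth of each library was not recovered, so no counting interval is given. The 9 root marker genes summed to between 11074 and 16830 CPM (normalized counts scaled to a library total of 1000000) in every library. Most of each sum came from 1 gene, PYK10, with 379041 of 415945 normalized counts in mock 1 and 522473 of 548088 in BiAux+IAA 2. That sum is therefore not a reading of 9 separate markers. Of a list of 33 nuclear photosynthesis genes used as markers of green tissue, 25 were in the table, and they summed to between 229 and 409 CPM. The table lists no gene under 3 normalized counts in IAA 3, so a gene absent from that library would be missing from it. In the tests below, 70 of the 120 organelle genes reached a mean of 0.5 CPM (16.3 normalized counts), 47 of 84 from the chloroplast and 23 of 36 from the mitochondrial genome. The 37 chloroplast genes under that level had means between 1.67 and 16.2 normalized counts and together held 0.968% of all chloroplast counts. The 13 mitochondrial genes under it had means between 2.17 and 14.9 and held 0.082% of all mitochondrial counts.

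Names could be given to 22 of the 120 genes, 14 of the chloroplast and 8 of the mitochondrial genome. Of these, 12 are named in a gene list of the study, which was drawn from these same libraries, and the others through RefSeq notes that match a nuclear gene to the organelle gene. The remaining 98 are given by identifier only. Because names came more readily to genes the study had listed, the share of named genes among those that changed carries no information. Reads of 13 organelle genes that have a matching nuclear gene, among them ATCG00430, ATCG00660, ATCG00670, ATCG01310, ATMG00980 and ATMG01320, could have been split between the copies, and their values are uncertain. Values of different genes were not divided by gene length, so a share of counts reflects length as well as abundance.

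Organelle genes were a small part of every library. The chloroplast genes held 0.1184%, 0.110% and 0.1022% of normalized counts in BiAux 1 to 3. In IAA libraries they held 0.1085%, 0.1055% and 0.1023%, and in BiAux+IAA libraries 0.1128%, 0.0963% and 0.0854%. The mock libraries gave 0.1142%, 0.1036% and 0.1303%. Every treated group overlapped mock, and mock 3 was the highest of the 12 libraries. The mean chloroplast share was 0.0982% ± 0.0138 in BiAux+IAA and 0.116% ± 0.0134 in mock (SD, n = 3 each), a ratio of 0.844 (exact two-sided permutation test on the log2 share, p = 0.2; 3 against 3 libraries cannot give a p under 0.1). For BiAux the mean was 0.1102% ± 0.0081 and the ratio to mock 0.952 (exact p = 0.6), and for IAA 0.1054% ± 0.0031 and 0.912 (exact p = 0.3). The ratio of BiAux+IAA to IAA was 0.925 (exact p = 0.5).

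Mitochondrial genes held more counts than chloroplast genes in every library. Their share was 0.3570%, 0.3999% and 0.3877% in BiAux 1 to 3, and 0.3990%, 0.4027% and 0.4884% in IAA 1 to 3. It was 0.3786%, 0.3569% and 0.3509% in BiAux+IAA, and 0.3751%, 0.3653% and 0.5208% in mock. The libraries IAA 3 and mock 3 stood above the other 10. All 3 BiAux+IAA libraries lay below all 3 IAA libraries, with means of 0.3621% ± 0.0146 and 0.430% ± 0.0506 (SD, n = 3 each), a ratio of 0.845 (exact p = 0.1, the smallest this design allows). The ratios to mock were 0.919 for BiAux, 1.03 for IAA and 0.873 for BiAux+IAA, with exact p = 0.8, 0.7 and 0.3. Without mock 3 the log2 ratio of BiAux to mock was 0.04, against -0.12 with all libraries.

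**Figure D1:**
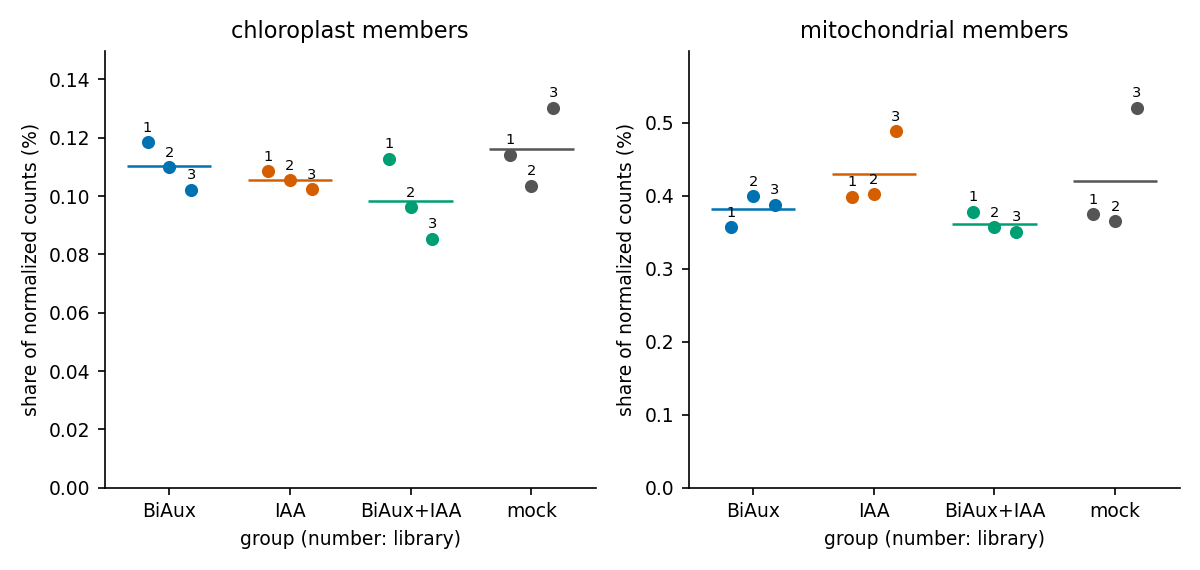
Share of the normalized counts of each library held by chloroplast genes (left) and mitochondrial genes (right), in percent, for the BiAux, IAA, BiAux+IAA and mock groups. Points are libraries with their numbers and lines are group means. The chloroplast shares lie between 0.0854% and 0.1303% and the groups overlap mock, and IAA 3 and mock 3 stand above the other libraries in the mitochondrial panel.

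The 76 nuclear RNAs that lack a poly(A) tail (rRNA, snRNA and snoRNA genes) give a reading of how much untailed RNA entered each library. They summed to 1208 CPM in IAA 3 and 1270 CPM in mock 3, the 2 highest values, and to between 947 and 1186 CPM in the other 10 libraries. Of each sum, between 91.7% and 94.4% came from a single rRNA gene, AT3G41768. Without it the other 75 genes summed to 76.7 CPM in IAA 3 and 83.2 CPM in mock 3, and IAA 3 was below BiAux 2 (79.8 CPM) and mock 2 (78.5 CPM). Whether carry-over of such RNA has a part in the high mitochondrial share of these 2 libraries was not tested.

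A few genes held most of each organelle's counts. ATCG00790 and ATCG01130 held 30.5% and 27.7% of all chloroplast counts, and the 10 highest chloroplast genes held 85.1%. ATCG00790 had 11779, 11314 and 10092 normalized counts in BiAux, 10764, 10630 and 9959 in IAA, 11576, 9013 and 8078 in BiAux+IAA, and 11592, 10127 and 13188 in mock. ATCG01130 had 12381, 9396 and 8652 in BiAux, 9409, 9032 and 8877 in IAA, 10764, 8101 and 7235 in BiAux+IAA, and 11633, 9120 and 11722 in mock. In both genes every treated group overlapped mock. ATCG00800 and ATCG00480 followed, with group means between 2013 and 2295 and between 1657 and 1923 normalized counts. Then came ATCG00780, ATCG00470 (atpE, the epsilon subunit of the plastid ATP synthase), ATCG00770, ATCG00740, ATCG01020 and ATCG00810, whose values lay between 326 and 1597 normalized counts.

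Mitochondrial counts were narrower still. ATMG00020 alone held 73.5% of them, between 72.1% and 76.7% in each library, and with ATMG01390 and ATMG00030 the share came to 97.2%. ATMG00020 had 84343, 96885 and 92168 normalized counts in BiAux, 94628, 97898 and 115616 in IAA, 94825, 85343 and 84519 in BiAux+IAA, and 87621, 87499 and 122463 in mock. Its groups overlapped in all 4 comparisons. The mitochondrial share is thus largely the level of this gene, and the share without it, or the median gene, can move otherwise. No source used here annotates ATMG00020, ATMG01390 or ATMG00030, so the share cannot be read as a level of mitochondrial messenger RNA. The next genes, ATMG00090, ATMG00160 and ATMG00510, had means between 1354 and 1810, between 418 and 581 and between 266 and 332 normalized counts in the 4 groups.

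**Figure D2:**
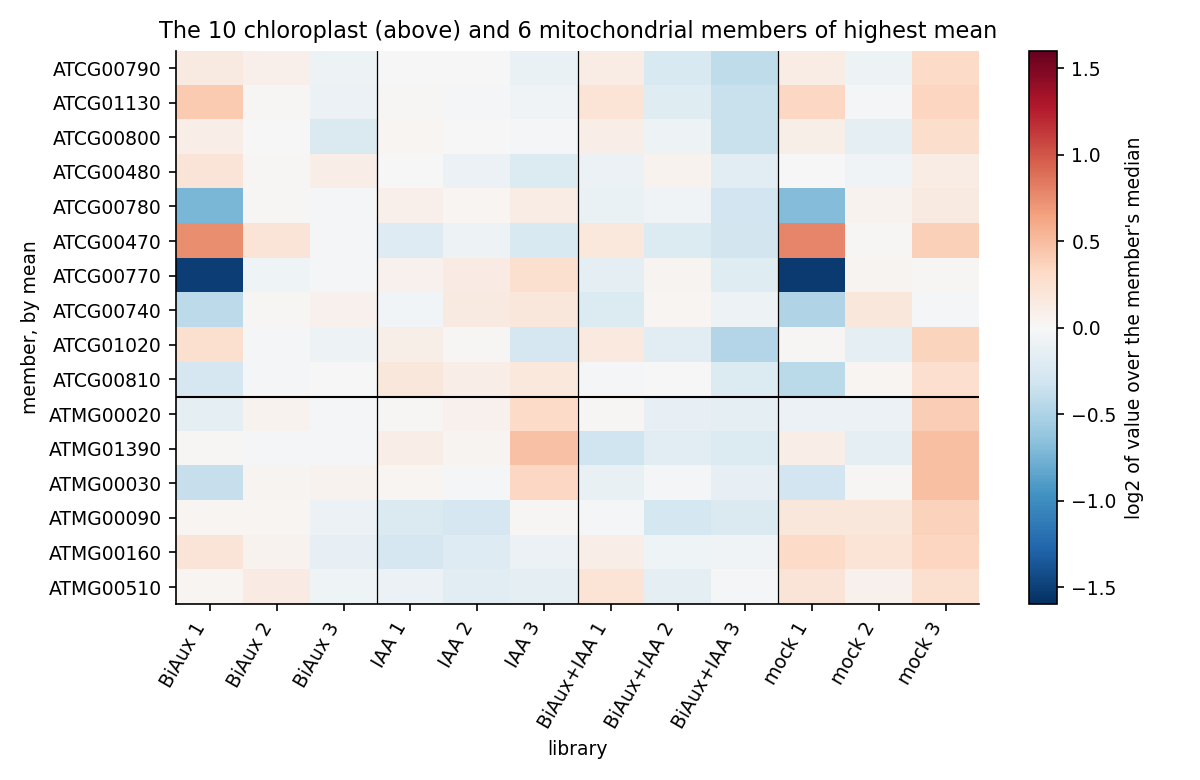
The 10 chloroplast and 6 mitochondrial genes of highest mean, in rows, against the 12 libraries, in columns by group. Colour is the log2 of the normalized count over the gene's own median across libraries, red above and blue below. ATCG00770 and ATCG00780 are lowest and ATCG00470 highest in BiAux 1 and mock 1, and the first 3 mitochondrial rows are highest in IAA 3 and mock 3.

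The largest differences among chloroplast genes did not follow treatment. BiAux 1 and mock 1 departed together from the other 10 libraries. ATCG01100 had 22 normalized counts in BiAux 1 and 28 in mock 1, and between 110 and 192 in the other 10. ATCG00760 had 67 and 60, against between 186 and 318, and ATCG00770 had 330 and 326, against between 820 and 1126. In the opposite direction, ATCG00430 (named by RefSeq as photosystem II reaction center protein G) had 126 and 112, against between 45 and 86, and ATCG00470 (atpE) 1554 and 1597, against between 759 and 1205. These genes were chosen after their values were seen, and no test is given.

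In all, 13 of the 47 chloroplast genes tested lay below all 10 other libraries in both BiAux 1 and mock 1, and 9 lay above all 10. Among the 23 mitochondrial genes there was 1 of each, ATMG00030 below and ATMG00980 above. Of 19268 nuclear genes, 27.5% lay below and 9.80% above. Between chloroplast and nuclear genes, the sizes differed more than the counts did. Against BiAux 2, BiAux 3, mock 2 and mock 3, 42.6% of chloroplast genes differed by more than 0.5 (log2). The same held for 4.35% of mitochondrial and 15.5% of nuclear genes. The median size was 0.41 for chloroplast, 0.17 for mitochondrial and 0.22 for nuclear genes.

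Low and high chloroplast genes were grouped by identifier. From ATCG00740 to ATCG00830, 7 of 10 genes tested lay below all 10 other libraries and none above, and from ATCG01010 to ATCG01310 the count was 4 of 8 and none. From ATCG00010 to ATCG00730 it was 2 of 29 below and 9 of 29 above. For the 12 annotated chloroplast genes that could be placed, the order of identifiers followed the gene order of the RefSeq plastid genome. The divisions were drawn after the values were seen. ATCG00790 and ATCG00800, both inside the low stretch and of high level, did not take part, with differences of 0.07 and 0.12 (log2).

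**Figure D3:**
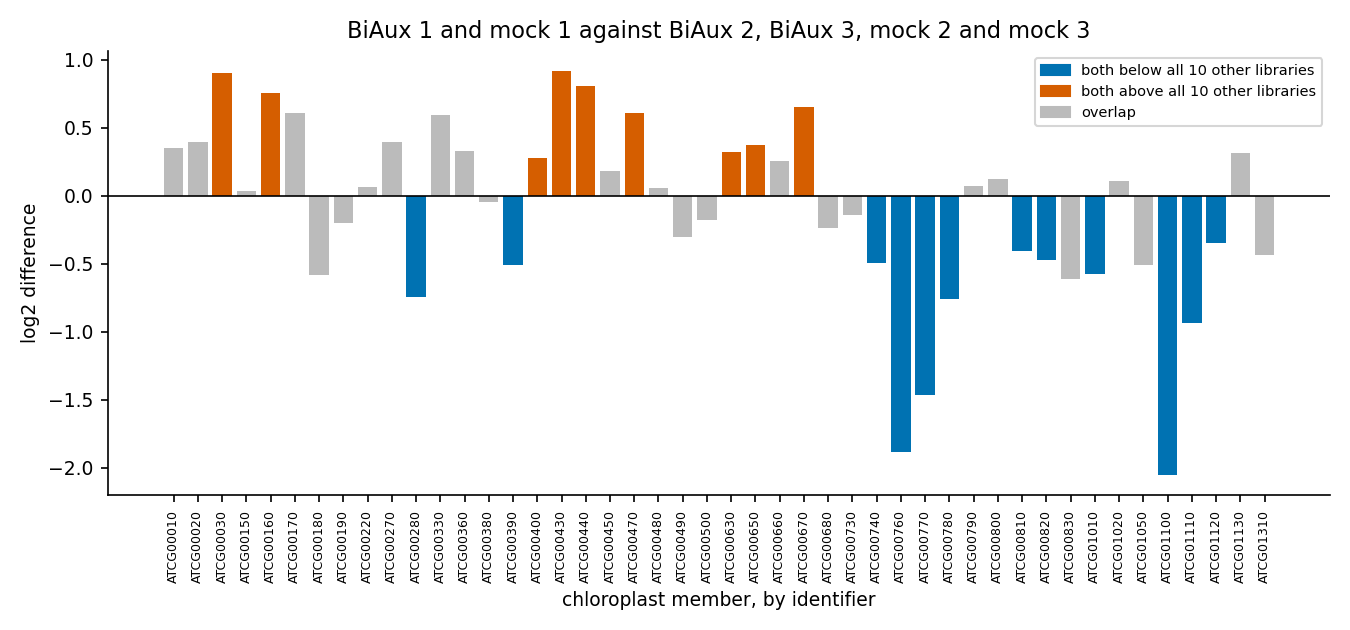
Difference in mean log2 (normalized count + 16.3) between BiAux 1 and mock 1 and the 4 libraries BiAux 2, BiAux 3, mock 2 and mock 3, for 46 of the 47 chloroplast genes tested, ordered by identifier. Blue bars are genes below and orange bars genes above all 10 other libraries in both BiAux 1 and mock 1. Differences run from -2.05 for ATCG01100 to 0.92 for ATCG00430.

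Taken as sums over gene lists, nuclear genes that serve organelle transcription were also low in these libraries, as were many other nuclear genes. Not every listed gene was low: SIGA and PTAC7, on the plastid polymerase list, lay inside or above the range of the other 10 libraries in both. Of all nuclear genes tested, 27.5% lay below all 10 other libraries in both BiAux 1 and mock 1. Nuclear genes for the plastid RNA polymerases and their associated proteins, 20 of a list of 21 being in the table, summed to 134 CPM in BiAux 1 and 146 CPM in mock 1, and to between 174 and 207 CPM elsewhere. The 2 nuclear genes for mitochondrial polymerases, 1 of them also on the plastid list, summed to 24.15 CPM in BiAux 1 and 25.4 CPM in mock 1, against between 42.25 and 55.3. The 9 nuclear genes for organelle RNA polyadenylation and decay summed to 63.9 and 64.6 CPM, against between 94.1 and 112. Untailed nuclear RNAs were inside the range of the other libraries, at 1063 CPM in BiAux 1 and 1081 CPM in mock 1, nearly all from AT3G41768, and so were the other 75 genes, at 66.3 CPM and 69.9 CPM. The part of these genes, or of library preparation, in the chloroplast pattern was not tested. Since each of the BiAux and mock groups holds 1 such library, comparisons with mock are given below with and without mock 1 where that mattered.

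Each comparison was tested with limma on log2 (normalized count + 16.3) across 19338 genes, so fold changes of genes of low level are understated. A call needed an unadjusted p under 0.05 and a difference of more than 0.5 on the log2 scale, up or down. No organelle gene passed a Benjamini-Hochberg adjusted p of 0.05 in these fits of any comparison, while 6 (0.0310%), 55 (0.284%), 287 (1.48%) and 741 (3.83%) of all genes did for BiAux against mock, IAA against mock, BiAux+IAA against mock and BiAux+IAA against IAA. For BiAux against mock, 538 of all genes passed it with the replicate number as a block and 503 without BiAux 1 and mock 1, with 0 organelle genes in both. At an unadjusted p under 0.05 there were 4, 19, 17 and 7 organelle genes. The 3 comparisons with mock share the mock libraries and are not independent of each other. BiAux and IAA were given at different doses and were not compared.

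In BiAux against mock, 1 of 70 organelle genes was called, and it was lower. Of all genes 1.08% were called lower and 0.507% higher. ATMG00516 had 19, 15 and 21 normalized counts in BiAux and 50, 23 and 35 in mock. The groups did not overlap by a narrow margin, and the log2 fold change was -0.57 ± 0.22 (SE; limma adjusted p = 1). It was called in 1 of the 6 fits that left out a library. No chloroplast gene reached an unadjusted p of 0.05, and the chloroplast fold changes stayed between -0.35 and 0.13 with a median of -0.06, against -0.04 for all genes. Without BiAux 1 and mock 1, 4 organelle genes were called, all lower, beside 1.82% of all genes called lower and 0.646% higher.

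Mitochondrial fold changes were negative in 21 of 23 genes, with a median of -0.24, where those of all genes were negative in 62.5% with a median of -0.04. At an unadjusted p under 0.05 there were 4 mitochondrial genes, ATMG00090, ATMG00513, ATMG00516 and ATMG01120, all lower, where 2.68% of all genes were lower and 1.57% higher at that level. ATMG00513 had 73, 70 and 65 normalized counts in BiAux and 108, 91 and 108 in mock, without overlap (log2 fold change -0.47 ± 0.13 SE, limma adjusted p = 0.696). ATMG00090 had 1560, 1554 and 1431 in BiAux and 1726, 1726 and 1977 in mock (-0.25 ± 0.09 SE, adjusted p = 0.981). Without mock 3 the median of the 23 genes was -0.10, and 14 were negative.

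In IAA against mock, 10 of 70 organelle genes (14.3%) were called, all lower, 7 of the chloroplast and 3 of the mitochondrial genome. Among all genes 2.00% were called lower and 1.29% higher. Among genes for the plastid gene expression machinery, ATCG00160 (rps2, of the small plastid ribosomal subunit) had 27, 24 and 35 normalized counts in IAA and 104, 42 and 71 in mock. The groups did not overlap, and the log2 fold change was -0.93 ± 0.26 (SE; limma adjusted p = 0.15). It stayed called whichever library was left out, with fold changes between -1.20 and -0.67. This gene lay above all 10 other libraries in both BiAux 1 and mock 1. ATCG00330 (rps14, of the same subunit) had 23, 37 and 36 in IAA and 80, 37 and 76 in mock, meeting at 37 (-0.70 ± 0.25 SE, adjusted p = 0.222). ATCG00170 (rpoC2, a subunit of the RNA polymerase that plastids themselves encode) had 56, 41 and 48 in IAA and 92, 54 and 94 in mock, with overlap (-0.55 ± 0.21 SE, adjusted p = 0.237).

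Genes of thylakoid complexes were among those called. ATCG00150 (atpI, of the membrane part of the plastid ATP synthase) had 29, 22 and 30 normalized counts in IAA and 44, 48 and 61 in mock. All 3 IAA libraries lay below mock, the log2 fold change was -0.63 ± 0.17 (SE; limma adjusted p = 0.138), and the gene stayed called whichever library was left out. ATCG00470 (atpE, of the catalytic part) had 806, 878 and 787 in IAA and 1597, 941 and 1205 in mock (-0.56 ± 0.17 SE, adjusted p = 0.177). Without mock 1, in which atpE was high as described above, the fold change was -0.37. ATCG00440 (ndhC, of the plastid NADH dehydrogenase-like complex) had 34, 34 and 25 in IAA and 88, 47 and 50 in mock (-0.69 ± 0.22 SE, adjusted p = 0.187; -0.46 without mock 1). ATCG00030, which no source used here annotates, had 50, 48 and 58 in IAA and 132, 65 and 91 in mock (-0.68 ± 0.22 SE; -0.45 without mock 1).

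Of the mitochondrial genes, ATMG00660 (orf149, of unknown function) had 244, 236 and 241 normalized counts in IAA and 342, 319 and 384 in mock. The 3 IAA libraries lay close together and below mock (log2 fold change -0.50 ± 0.11 SE, limma adjusted p = 0.0986). ATMG00513 had 64, 54 and 83 in IAA and 108, 91 and 108 in mock (-0.52 ± 0.17 SE, adjusted p = 0.187). ATMG00980, whose RefSeq match is a ribosomal protein of the S12/S23 family, had 19, 17 and 11 in IAA and 43, 27 and 25 in mock (-0.57 ± 0.20 SE, adjusted p = 0.215). The lowest p of an organelle gene belonged to ATMG00160, which was not called because its fold change was too small. It had 394, 412 and 447 in IAA and 589, 553 and 601 in mock (-0.46 ± 0.10 SE, limma adjusted p = 0.0933).

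At an unadjusted p under 0.05 alone there were 11 chloroplast and 8 mitochondrial genes, all lower in IAA, where 8.86% of all genes were lower and 7.90% higher. The median fold change was -0.12 for chloroplast and -0.28 for mitochondrial genes, against 0.00 for all genes. The 3 mitochondrial genes of highest count did not share this direction: ATMG00020, ATMG01390 and ATMG00030 had fold changes of 0.06, 0.06 and 0.04. The change of the summed mitochondrial share and the median fold change over genes therefore differed in sign. Some chloroplast genes had positive fold changes without passing the test, among them ATCG00760 at 0.75 ± 0.47 and ATCG00770 at 0.62 ± 0.36 (SE), both of them low in mock 1.

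The calls in this comparison depended on the mock libraries. Without mock 1, 9 genes were called, all lower, of which 4 were among the 10, beside 3.13% of all genes called lower. In that fit ATCG00150, ATMG00660, ATMG00160 and ATMG00090 had limma adjusted p of 0.0375, 0.0226, 0.0200 and 0.0246, and 1823 of all genes (9.43%) had one under 0.05. Without mock 2, 17 were called, 15 lower and 2 higher, beside 2.07% and 1.39% of all genes. Of the 6 fits that each left out a library, ATCG00170 kept its call in 2, ATMG00513 in 3, ATCG00330, ATCG00440, ATMG00660 and ATMG00980 in 4, and ATCG00030 and ATCG00470 in 5. Without mock 3 the medians were -0.02 for chloroplast and -0.08 for mitochondrial genes.

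In BiAux+IAA against mock, 10 of 70 organelle genes (14.3%) were again called, all lower, 8 chloroplast and 2 mitochondrial. Among all genes 3.73% were called lower and 1.87% higher. Of the 10 genes in each of these lists, 7 were in both, and both comparisons use the same mock libraries. ATCG00150 (atpI) had 29, 22 and 21 normalized counts in BiAux+IAA and 44, 48 and 61 in mock. The groups did not overlap, and the log2 fold change was -0.74 ± 0.17 (SE; limma adjusted p = 0.088), the lowest p of an organelle gene here. ATCG00330 (rps14) had 32, 19 and 33 in BiAux+IAA and 80, 37 and 76 in mock (-0.83 ± 0.26 SE, adjusted p = 0.18). ATCG00170 (rpoC2) had 46, 43 and 45 in BiAux+IAA and 92, 54 and 94 in mock (-0.63 ± 0.20 SE, adjusted p = 0.187). These 3 stayed called whichever library was left out.

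The other calls were narrower. ATCG00670 (clpP1, a subunit of the plastid Clp protease) had 336, 261 and 257 normalized counts in BiAux+IAA and 524, 319 and 440 in mock, with overlap (log2 fold change -0.54 ± 0.19 SE, limma adjusted p = 0.234). ATCG00010 had 222, 120 and 108 in BiAux+IAA and 309, 200 and 243 in mock, and BiAux+IAA 1 overlapped mock (-0.73 ± 0.26 SE, adjusted p = 0.244). ATMG01120 had 13, 18 and 19 in BiAux+IAA and 23, 33 and 37 in mock (-0.51 ± 0.19 SE, adjusted p = 0.264). ATCG00160, ATCG00440, ATCG00030 and ATMG00980 had fold changes of -0.65, -0.59, -0.69 and -0.57. Without mock 1 these 4, ATCG00010 and ATCG00670 were no longer called and 4 of the 10 were, while ATCG00150 and ATMG00090 both had a limma adjusted p of 0.0355, as 1097 of all genes (5.67%) had one under 0.05. Of the 6 fits that each left out a library, ATCG00160 kept its call in 2, and ATCG00010, ATCG00030, ATCG00440, ATCG00670, ATMG00980 and ATMG01120 in 3.

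At an unadjusted p under 0.05 alone, 9 chloroplast and 8 mitochondrial genes were lower and none higher, against 8.13% lower and 5.02% higher of all genes. Mitochondrial fold changes were negative in 22 of 23 genes with a median of -0.25, and chloroplast ones in 35 of 47 with a median of -0.19, while the median of all genes was -0.01. Without mock 3 these medians were -0.12 and -0.09. Leaving out BiAux+IAA 2 or BiAux+IAA 3 left 6 calls each, all lower, beside 3.55% and 3.66% of all genes called lower. ATCG01310 (rpl2, of the large plastid ribosomal subunit, present in 2 copies in the plastid genome) had the lowest fold change, -0.95 ± 0.52 (SE, adjusted p = 0.519), with 49 normalized counts in BiAux+IAA 2 and between 256 and 387 in the other 11 libraries.

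**Figure D4:**
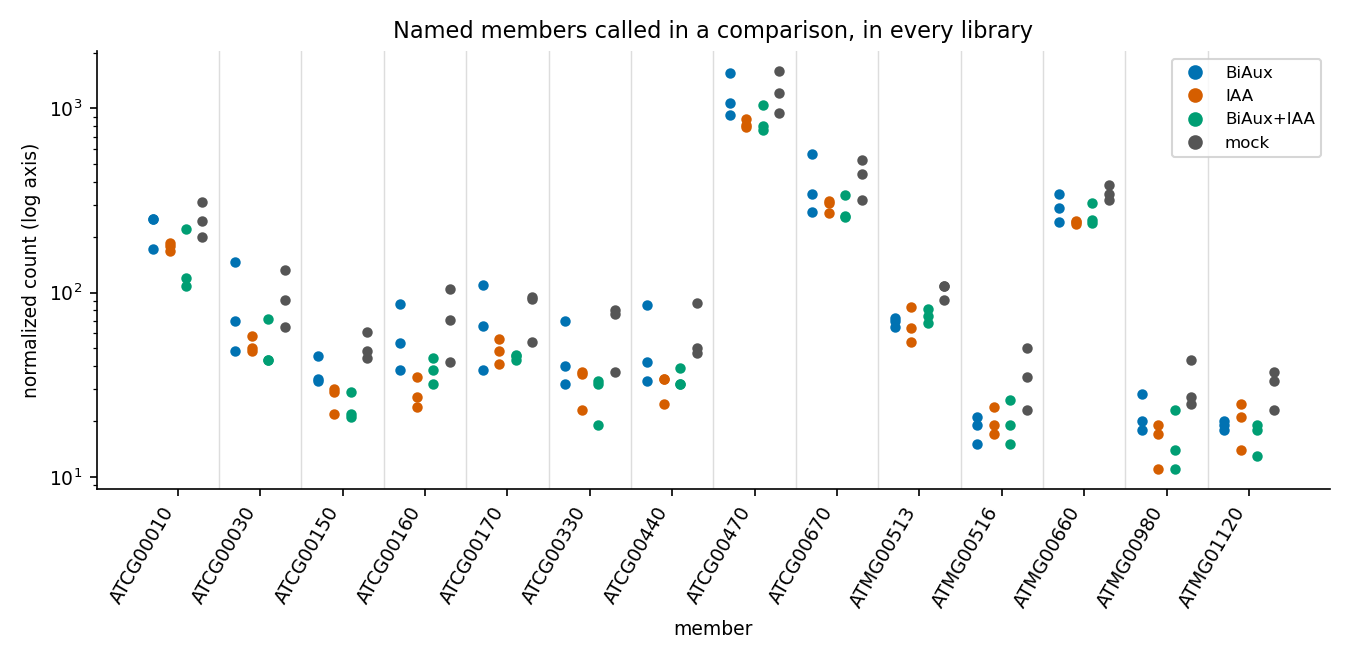
Normalized counts, on a log axis, of the 14 organelle genes called in a comparison, in every library of BiAux, IAA, BiAux+IAA and mock. Each point is a library. For ATCG00150 the IAA and BiAux+IAA points lie between 21 and 30 and the mock points between 44 and 61.

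The 14 genes called in any comparison were mostly of low level. Of these, 10 had a mean under 100 normalized counts, as had 37 of the 70 genes tested. In the BiAux libraries 11 of the 14 overlapped mock. The share of all genes that overlap in this way was not counted, and the 14 were chosen by calls against the same mock libraries. The count is therefore not a result about BiAux.

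In BiAux+IAA against IAA, where the titles name IAA on both sides, none of the 70 organelle genes was called. Of all genes 1.89% were called lower and 1.51% higher. At an unadjusted p under 0.05, limma gave 6 organelle genes lower and 1 higher, where 12.9% of all genes were lower and 7.60% higher. These 7 genes are named after their values were seen. ATMG01390, the second mitochondrial gene by count, had 17079, 18924 and 18166 normalized counts in BiAux+IAA and 22771, 21889 and 29490 in IAA. The groups did not overlap (log2 fold change -0.44 ± 0.12 SE, limma adjusted p = 0.0621). ATCG00780 had 1281, 1316 and 1115 in BiAux+IAA and 1449, 1409 and 1488 in IAA (-0.23 ± 0.08 SE, adjusted p = 0.123), and ATCG00770 had 849, 966 and 820 against 981, 1029 and 1126 (-0.25 ± 0.08 SE, adjusted p = 0.128). Without BiAux+IAA 2 these adjusted p were 0.0465 for ATMG01390 and 0.0473 for ATCG00770, and without BiAux+IAA 1 ATCG00010 had 0.0446, in fits where 5.70% and 3.41% of all genes had one under 0.05. ATCG00810, ATCG00820 and ATCG00280 were also lower, and ATCG00270 was higher. The median fold change was -0.07 for chloroplast and 0.00 for mitochondrial genes, against -0.02 for all genes.

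**Figure D5:**
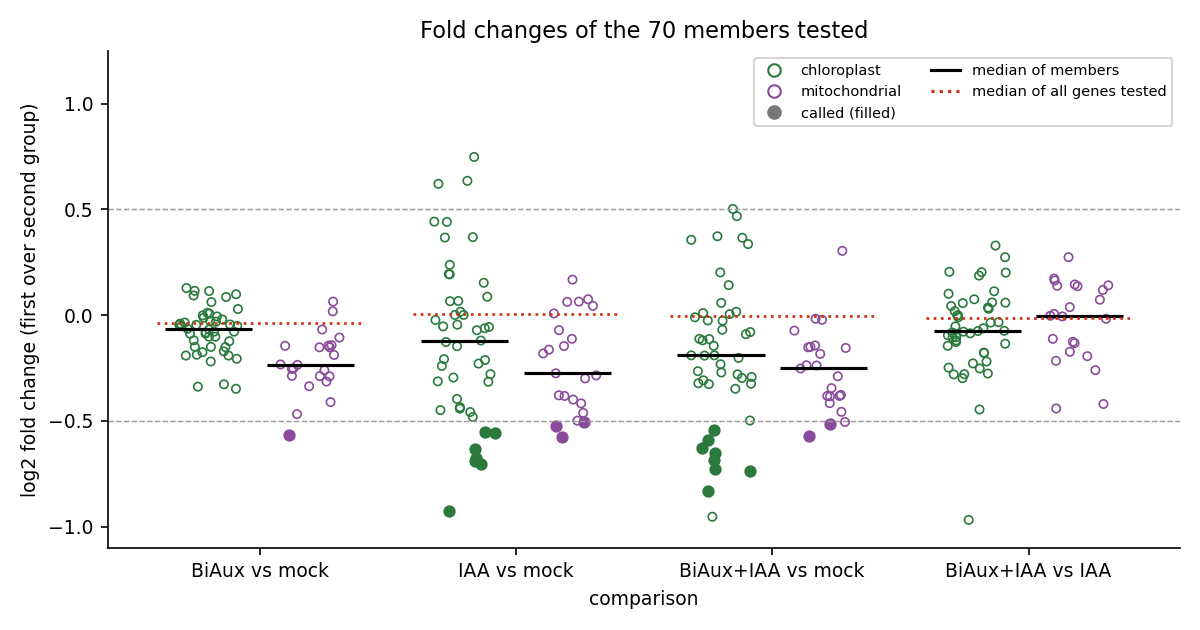
Log2 fold changes of the 47 chloroplast (green) and 23 mitochondrial (purple) genes tested in each comparison, first group over second. Filled points are called genes, black lines the medians of each set, red dotted lines the median of all genes tested, and grey dashed lines the limits of 0.5 and -0.5. All filled points lie below -0.5, with 1, 10, 10 and 0 of them in the comparisons from left to right.

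Whether the effect of BiAux differed with and without IAA was tested as an interaction over the 12 libraries. No gene of the organelles, and none of all 19338 genes (0.00%), passed an adjusted p of 0.05. At an unadjusted p under 0.05 limma gave 3 of 70 organelle genes (ATMG00670, ATMG00513 and ATMG00160), all mitochondrial and positive, against 7.94% of all genes.

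Nuclear photosynthesis genes, taken as a sum, were also lower than mock. Their sum was between 254 and 296 CPM in BiAux, between 229 and 296 CPM in IAA and between 245 and 309 CPM in BiAux+IAA, all below the 312 to 409 CPM of mock. Of the 23 that were tested, 4 were called lower in BiAux, 9 in IAA and 5 in BiAux+IAA against mock. Of all genes 1.08%, 2.00% and 3.73% were called lower in these comparisons. In BiAux+IAA against IAA none of the 23 was called, where 1.89% of all genes were called lower and 1.51% higher. None had an adjusted p under 0.05, and median fold changes against mock were -0.35, -0.46 and -0.37. Among them were LHCB5 and LHCB6, light-harvesting proteins of photosystem II, at -0.77 ± 0.14 and -0.81 ± 0.17 (SE) in IAA against mock. Their limma adjusted p there were 0.0642 and 0.0882, and in BiAux against mock their fold changes were -0.66 and -0.09. CAB1 and RBCS1A were at -1.0 ± 0.10 and -1.07 ± 0.13 (SE) in BiAux against mock, with limma adjusted p of 0.0519 and 0.0936. In IAA against mock these 2 were at -0.41 and -0.46. The amount of green tissue or its expression cannot be told apart in RNA of roots, where fewer cells of a type and less RNA per cell look the same, and its part in the chloroplast differences was not tested.

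Nuclear genes for organelle transcription and RNA decay gave no calls by the same test. None of the 20 genes tested for the plastid polymerases and associated proteins, of the 2 mitochondrial polymerases, or of the 8 polyadenylation and decay genes was called in any of the 4 comparisons, with median fold changes between -0.24 and 0.21. Of all genes 1.59% were called in BiAux, 3.29% in IAA and 5.6% in BiAux+IAA against mock, and 3.40% in BiAux+IAA against IAA. In lists this short, the absence of calls does not show that these genes kept their level.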

How the data were processed

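Poly(A) RNA of roots was sequenced in 12 libraries, 3 for each of 4 treatments. Per the labels and the methods of the study, the authors checked reads with FastQC, aligned them to TAIR10 (the methods name STAR, the labels HISAT2), counted them per gene with HTSeq and normalized with edgeR. The deposited values are log2 of these normalized counts plus 1, to 3 decimals, and 100% of values up to 8 were within 0.1 of a whole number when taken out of the log2 scale. Because they are normalized, no count model was used. Reads of poly(A) libraries cover organelle RNA unevenly, and reads shared by organelle and nuclear copies can be lost or misplaced by the alignment.

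Values were taken back to whole normalized counts. Genes averaging under 0.5 CPM (16.3) were dropped, which left 19338 of 20814. Tests were run on log2 (normalized count + 16.3) with the trended moderated statistics of limma 3.58.1, under R 4.3.3, using the 6 libraries of the groups compared, or all 12 for the interaction. Shares were compared with exact permutation tests. The procedure was tested on simulated data. Python 3.11.15, pandas 2.3.3, numpy 2.4.6 and matplotlib 3.10.9 were used for tables and plots. The organelle genes and the nuclear lists were chosen with earlier results of these data known. Genes given singly were the 10 chloroplast and 6 mitochondrial genes of highest mean and, per comparison, up to 5 called genes of lowest p from each organelle. Any other gene was named after its values were seen.

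Replicate numbers come from the titles. In BiAux against mock, libraries with the same number deviated together from the means of their groups. Their correlations were 0.78, 0.41 and 0.58 over all genes tested, which met the rule set for pairs, that each exceed 0.1. Libraries of different number reached as much (0.62 for mock 3 with BiAux 2, 0.48 for mock 2 with BiAux 3), and only the libraries numbered 1 stood apart. Deviations within a group cancel out, so the rule cannot tell which of the libraries numbered 2 and 3 belong together. The fits reported leave the number out, and a fit with the number as a block was also made. In the other comparisons at least 1 pair did not reach 0.1. Alternatives were other pseudocounts and filters, median-of-ratios factors, a common fit, the block, the deposited log2 values, and leaving out each library. No sequences are printed, and the values of 1 chloroplast gene are not reported here. Gene lengths and coordinates were not used here, since the genome at hand is of another build (TAIR10.1).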

Additional observations from a re-analysis of the deposited data

Results flagged for a closer look

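Among the organelle genes, 2 mitochondrial ones had all BiAux libraries below all mock libraries and all BiAux+IAA libraries above all IAA libraries. For ATMG00670 (orf275, of unknown function) the values were 44, 49 and 47 normalized counts in BiAux and 62, 54 and 66 in mock, and 56, 55 and 49 in BiAux+IAA and 46, 40 and 38 in IAA. The interaction, tested with limma, was 0.56 ± 0.17 (log2, SE; limma adjusted p = 0.485). For ATMG00160 the values were 549, 496 and 434 in BiAux and 589, 553 and 601 in mock, and 510, 454 and 455 in BiAux+IAA and 394, 412 and 447 in IAA, with an interaction of 0.41 ± 0.14 (limma adjusted p = 0.527). Neither difference passed the adjustment over all genes. Of the 70 organelle genes tested, these 2 (2.86%) had this arrangement and 0 the opposite one, against 68 (0.352%) and 66 (0.341%) of all 19338 genes. The pattern was chosen by this arrangement, and no test of the share is given.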

How the results depend on the processing

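Called organelle genes against mock were lower in the fits reported, and their number depended on how low values were treated. For BiAux against mock, 1 gene was called as reported, 3 with a pseudocount of 0.1 CPM, 3 on the deposited log2 values, 4 without BiAux 1 and mock 1 (chosen after seeing the data), and 0 with a pseudocount of 2 CPM, with a filter at 5 CPM or with median-of-ratios factors. Of all genes, 1.08%, 1.29%, 1.3%, 1.82%, 0.548%, 0.479% and 0.941% were called lower in these fits, in the same order. For IAA against mock, 10 became 2 with a pseudocount of 2 CPM and 2 with the filter at 5 CPM, which left 30 organelle genes. The share of all genes called lower went from 2.00% to 1.19% and 1.5%. For BiAux+IAA against mock, 10 became 1 with a pseudocount of 2 CPM and 2 with the filter at 5 CPM, while the share of all genes called lower went from 3.73% to 2.34% and 2.44%. For BiAux+IAA against IAA, 0 became 1 with a pseudocount of 0.1 CPM and 1 on the deposited log2 values, both lower. The share of all genes called lower went from 1.89% to 2.39% and 2.46%. Leaving out each library in turn gave 0 to 3, 7 to 17, 6 to 14 and 0 to 3 genes in the 4 comparisons, and 0 for the interaction (by adjusted p). In the same order, 0.719% to 2.78%, 1.73% to 3.37%, 3.55% to 4.54% and 1.67% to 2.32% of all genes were called lower. Those called higher were 0.326% to 1.2%, 1.05% to 2.57%, 1.21% to 2.85% and 1.09% to 2.05%.

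With the replicate number as a block, 1, 13, 12 and 1 organelle genes were called in the 4 comparisons, 3 of the 13 being higher, and the interaction had 0 by adjusted p. Of all genes 1.48%, 2.33%, 3.99% and 2.06% were called lower with the block, and 0.61%, 1.4%, 2.05% and 1.56% higher. The gene ATMG00516 kept its call in BiAux against mock, where the rule for pairs was met, and the block changed no other call on a named gene there. The rule was not met in the other comparisons. An adjusted p under 0.05 was reached with the block by 3 organelle genes in BiAux+IAA against mock (806 of all 19338 genes) and 1 in BiAux+IAA against IAA (1056), and in 1 fit of all 12 libraries by 3 in IAA (614) and 2 in BiAux+IAA against mock (794), against 0 as reported.

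Summed shares changed sign when each library's sum was replaced by its median level over the organelle's genes, which is not the median of the genes' fold changes: the log2 ratio became 0.045 for the chloroplast in BiAux against mock, 0.14 for the chloroplast and -0.17 for the mitochondria in IAA against mock, and 0.015 for the mitochondria in BiAux+IAA against IAA. Leaving out each library gave chloroplast log2 ratios of -0.15 to 0.015, -0.21 to -0.04, -0.35 to -0.15 and -0.22 to -0.02, and mitochondrial ones of -0.21 to 0.042, -0.049 to 0.21, -0.29 to -0.03 and -0.29 to -0.15, in the order BiAux, IAA and BiAux+IAA against mock and BiAux+IAA against IAA. The cause was not tested. The 21 calls kept their direction under every alternative, and were kept in 129 of 151 refits of other settings and 82 of 126 that left out a library. Of 95 uncalled fold changes of named genes, 41 changed sign in at least 1 refit (78 of 1335 refits) and 30 refits made a call. The libraries' depth is unknown, and 3 against 3 libraries leave small changes of genes of low level undetectable.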

Other observations

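Counts under the limit of 0.5 CPM were left out of the tests, and without that limit 10 organelle genes were called in IAA against mock and 12 in BiAux+IAA against mock, all lower, beside 417 (2.00%) and 802 (3.85%) of all 20814 genes. The chloroplast gene with the widest gap between a lone library and the rest was ATCG01310 (rpl2), at 49 normalized counts in BiAux+IAA 2, where the nearest library had 256. The next widest gap was that of ATMG00980, with 43 normalized counts in mock 1 and 28 in the nearest library. Deviations of BiAux 1 and mock 1 from their group means correlated at r = 0.92 across the 47 chloroplast genes and at 0.48 across the 23 mitochondrial genes. Points are genes of the same libraries and not independent, and no p is given. BiAux+IAA 1 deviated in the same direction to a lesser degree, with r = 0.57 to mock 1 across the chloroplast genes.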
